A study of Mus musculus with 6 samples.

Results

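Conjugating transferases attach a bulky polar group to a drug, a pollutant or a reactive product of metabolism. The genes described here were taken by symbol from the table of transcript counts: every Gst gene with a class letter and a digit, every Ugt gene with a digit and every Sult gene with a digit. This gave 34 of the 15643 genes in the table, of which 22 are glutathione transferases, 3 are UDP-glycosyltransferases and 9 are sulfotransferases. In the GENCODE annotation of the mouse genome build GRCm38 the same pattern finds 22, 22 and 21 protein-coding genes of the 3 classes. Every annotated Gst gene that matches the pattern was thus in the table. The Ugt and Sult genes missing from the table were not analysed here. The symbol is the only criterion. Ugt8a was kept by it although its enzyme transfers galactose to ceramide, a step in making myelin lipids.

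Cytosolic glutathione transferases join the thiol of glutathione to electrophiles such as epoxides, quinones and lipid aldehydes, and are sorted by sequence into classes such as alpha (Gsta), mu (Gstm), pi (Gstp) and theta (Gstt). UDP-glucuronosyltransferases of the endoplasmic reticulum attach glucuronic acid, and cytosolic sulfotransferases attach sulfate, chiefly to phenols, steroids and bile acids. Liver, gut, kidney and airway are the organs best known for these enzymes. In the thymus, mature medullary epithelial cells transcribe many genes of other organs and show their products to developing T cells, and the nuclear protein Aire promotes much of that transcription.

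The libraries were made from sorted medullary thymic epithelial cells of the mature kind (mTEChi), taken from NOD mice, an inbred strain prone to autoimmune diabetes, at 4.5 weeks of age. One set of 3 libraries, with the numbers 746, 748 and 749, carries the genotype label Aire-/-, and the other set of 3, with 745, 750 and 753, the label Aire+/+. Values of single libraries are given in these orders. All libraries are on the NOD background, with no treatment named. MARS-seq was used, a method that tags the 3′ end of each captured transcript with a unique molecular identifier (UMI), so that a count stands for molecules and does not grow with transcript length. Neither the sorting markers nor the deleted part of the Aire allele is given in the labels, and nothing says whether each library came from a separate mouse, so p-values reflect how far these libraries differ from each other, which may be technical.

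The Aire-/- libraries held 1014581 to 1960802 UMIs and the Aire+/+ libraries 2736932 to 2887321. UMIs assigned to Aire itself were at 4827 ± 333 CPM in Aire-/- cells and 2250 ± 192 CPM in Aire+/+ cells (SD, n = 3 each). CPM are UMIs per 1000000 UMIs of a library after edgeR's TMM scaling between libraries. Because the deleted part is not known, a 3′ tag of Aire does not check the genotype, and directions below rest on the labels. Library 746 of the Aire-/- group (28 UMIs) and library 753 of the Aire+/+ group (90 UMIs) stood apart in Gapdh, a glycolytic enzyme, with 2245 to 4166 UMIs in the other 4 libraries. Of 13 markers of mature medullary epithelium all were detected, and major histocompatibility complex class II transcripts were abundant, with H2-Aa at 18779 ± 2033 CPM in Aire-/- and 10772 ± 1301 CPM in Aire+/+ libraries. In bulk RNA, fewer cells of a kind and less RNA per cell cannot be told apart.

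Glutathione transferase transcripts were less abundant in Aire-/- cells. Of the 34 genes, 24 passed the filter on low counts and were tested. The filter asks for a minimum level in as many libraries as a group holds, so a gene can pass through either group alone. Gstm3, Gstm7, Gsta3 and Sult1a1 were too low in Aire-/- libraries to pass by those alone. The direction of these genes was thus partly fixed in advance. In edgeR's quasi-likelihood test with Benjamini-Hochberg adjustment over all 11956 genes tested, 13 of the 24 fell, 0 rose and 11 did not pass an adjusted p of 0.05, where 12.1% of all tested genes were called lower and 8.59% higher. At an unadjusted p under 0.05, 14 of the 24 were lower and 0 higher, and DESeq2, which tested all 34, called 14 lower and 0 higher. Over the 15643 genes in the table DESeq2 called 1531 lower and 829 higher. The share of all genes at an unadjusted p under 0.05 is not given here. The 13 that fell were 12 of 18 tested glutathione transferases and 1 of 5 tested sulfotransferases, and the only tested Ugt gene was not called. The median log2 fold change of Aire-/- over Aire+/+ was -0.81 over the 24 genes and -0.02 over all genes tested. It was -1.07 for the glutathione transferases and 0.16 for the sulfotransferases, and these medians are the same with Gstm3 at its bound. Without libraries 746 and 753, edgeR called 12 of the genes lower and 0 higher, beside 1177 lower and 652 higher over all genes. The number of all genes tested in that fit is not given here.

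Most of the falls were moderate. Of the 13, 10 fell at least 2-fold and 2 at least 8-fold, with a median log2 fold change of -1.49 over the 13 and -2.19 over all 1450 genes called lower. All 13 had groups that did not overlap, as did 15 of the 24 tested, while 36.5% of all tested genes had groups that did not overlap. UMIs of at least 1 molecule were found for 25, 26 and 30 of the 34 genes in Aire-/- libraries 746, 748 and 749, and for 33, 33 and 34 in Aire+/+ libraries 745, 750 and 753. Reduced to the depth of the smallest library, 1014581 UMIs, the expected numbers were 25, 25.1 and 28.3 genes in Aire-/- cells and 32.8, 31.2 and 33.5 in Aire+/+ cells. At equal depth each Aire-/- library was thus still expected to hold fewer of the genes than any Aire+/+ library. Over the whole table, at full depth, 13566 to 14182 of the 15643 genes were detected in Aire-/- libraries and 15566 to 15596 in Aire+/+ libraries. Every gene in the table reached at least 6 UMIs in some library. Genes that did so only in Aire+/+ libraries make part of this difference fixed in advance, so it is not read as a result about these genes.

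**Figure D1:**
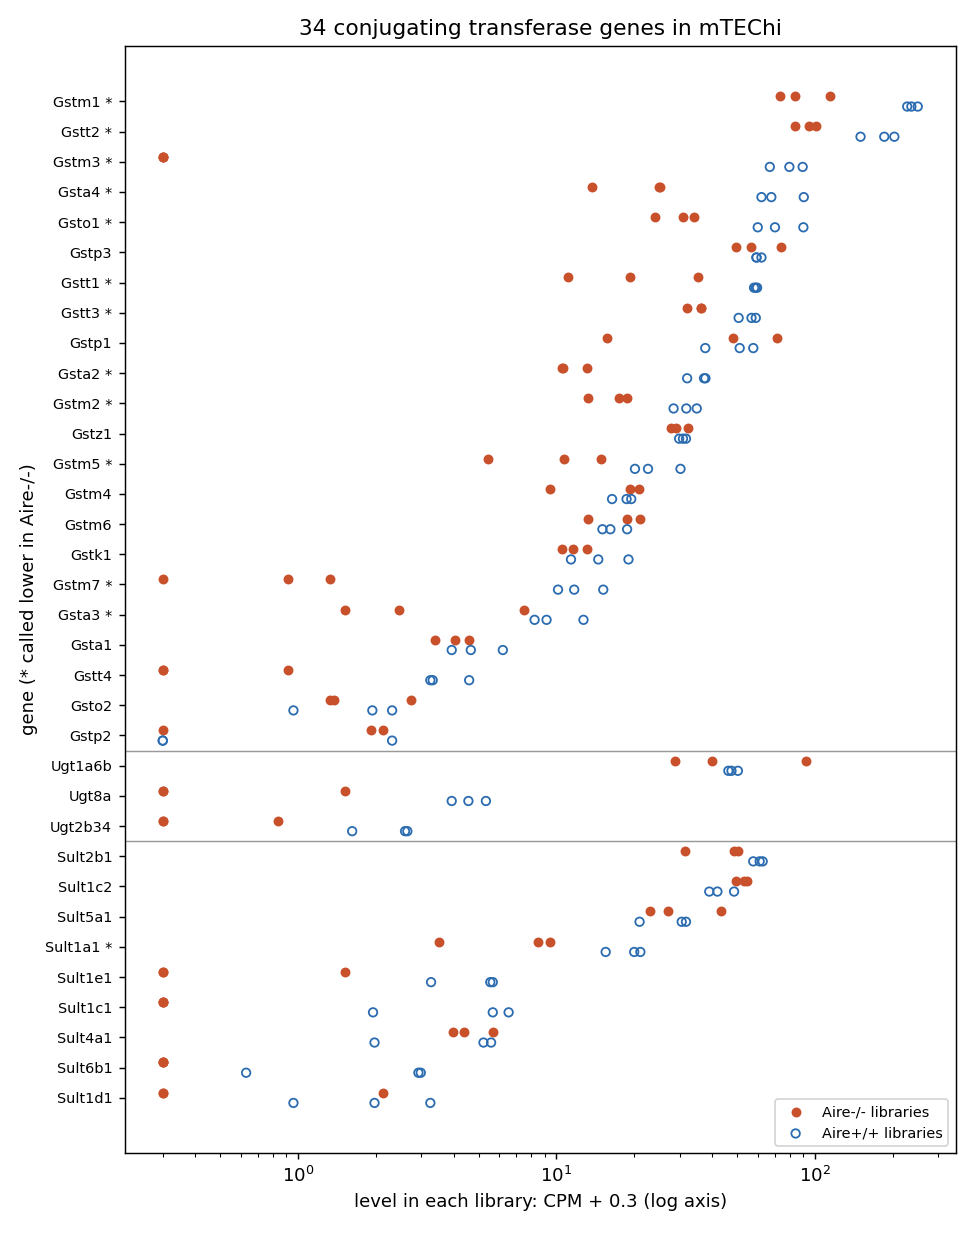
Level of each of the 34 genes in each library, as CPM with 0.3 added so that zeros can be drawn on the log axis; for each gene the filled points are the 3 Aire-/- libraries and the open points, set just below, the 3 Aire+/+ libraries, ordered within a class by the Aire+/+ mean, and an asterisk marks the 13 genes called lower. The 3 Aire-/- points of Gstm3 lie at the zero mark, and those of Gstp3, Gstz1 and Gstm6 overlap the Aire+/+ points.

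The mu class held the 2 most negative fold changes of the 24 genes that passed the filter, those of Gstm3 and Gstm7, while Sult1c1, below the filter, was at -5.10 with DESeq2 against -4.72 for Gstm7. Its 7 genes lie side by side on chromosome 3 (chr3:107895821-108044894, GRCm38) in the order Gstm5, Gstm7, Gstm6, Gstm3, Gstm2, Gstm1 and Gstm4, and 5 of the 7 fell. Summed over the 7 genes the level was 178, 123 and 151 CPM in Aire-/- libraries 746, 748 and 749, against 390, 413 and 449 CPM in Aire+/+ libraries 745, 750 and 753. Promoters of 3 genes of the cluster that fell and of 1 that was not called are shown so that their sequences can be compared. They run from 250 bases before the annotated start to 50 bases after it, 5′ to 3′ on the strand of the gene, from RefSeq on GRCm38.p6, and capitals mark matches to the motifs named after them.
Gstm3 (chr3:107969125-107969424, minus strand): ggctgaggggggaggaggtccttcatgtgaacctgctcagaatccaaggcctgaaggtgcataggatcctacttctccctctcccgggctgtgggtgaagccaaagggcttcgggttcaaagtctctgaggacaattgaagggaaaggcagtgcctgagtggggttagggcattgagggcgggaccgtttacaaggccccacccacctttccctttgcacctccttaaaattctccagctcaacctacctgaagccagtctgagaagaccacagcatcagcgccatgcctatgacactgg
Gstm5 (chr3:107895604-107895903, plus strand): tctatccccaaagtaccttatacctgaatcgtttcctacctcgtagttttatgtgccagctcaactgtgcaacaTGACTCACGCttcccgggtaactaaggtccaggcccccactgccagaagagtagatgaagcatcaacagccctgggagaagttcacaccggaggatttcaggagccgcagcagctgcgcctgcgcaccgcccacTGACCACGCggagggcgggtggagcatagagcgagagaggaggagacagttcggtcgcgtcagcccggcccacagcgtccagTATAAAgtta
Gstm1 (chr3:108017924-108018223, minus strand): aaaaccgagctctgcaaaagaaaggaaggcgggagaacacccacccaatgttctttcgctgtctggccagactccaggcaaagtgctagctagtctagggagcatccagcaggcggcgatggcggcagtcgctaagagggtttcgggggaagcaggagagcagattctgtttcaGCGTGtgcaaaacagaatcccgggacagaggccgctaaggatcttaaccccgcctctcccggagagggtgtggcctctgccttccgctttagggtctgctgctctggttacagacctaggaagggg
Gstm6 (chr3:107943685-107943984, minus strand): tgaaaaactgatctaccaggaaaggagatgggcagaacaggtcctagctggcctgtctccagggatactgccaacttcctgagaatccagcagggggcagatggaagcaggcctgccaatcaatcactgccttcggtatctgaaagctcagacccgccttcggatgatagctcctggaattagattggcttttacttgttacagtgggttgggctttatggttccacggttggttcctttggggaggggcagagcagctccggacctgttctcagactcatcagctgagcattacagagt

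The motifs were searched on both strands and are TGACNNNGC (the antioxidant response element bound by Nrf2), GCGTG (the core bound by the aryl hydrocarbon receptor), GTTAAT (the core of an HNF1 site), TATAAA (the TATA box) and TGANTCA (an AP-1 site). Positions give the first base of a match, with 0 as the annotated start. The Gstm5 promoter held matches to 4 of the motifs. Its antioxidant element at position -42 from the start overlaps a receptor core at -38, its AP-1 match at -176 overlaps a receptor core at -171, and its TATAAA lies at 40, after the start. The Gstm1 promoter held 1 receptor core, at -76, and those of Gstm3 and Gstm6 held none of the 5 motifs. Promoters were found for 30 of the 34 genes. The antioxidant element was in 2 of the 11 promoters of genes that fell (Gsta3 and Gstm5), in 0 of the 9 of tested genes that were not called, in 14.9% of the 9478 promoters of tested genes and in 12.5% of all 27025 promoters in the table. The receptor core was in 3 of the 11 and 3 of the 9, in 49.4% of promoters of tested genes and in 32.5% of all. GTTAAT was in 2 of the 11 (Gsta3 and Sult1a1), 0 of the 9, 4.11% of tested genes and 7.2% of all, TATAAA in 3 of the 11, 0 of the 9, 8.65% of tested genes and 14.2% of all, and TGANTCA in 1 of the 11, 1 of the 9, 5.62% of tested genes and 7.93% of all. A match describes letters in these windows only.

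Gstm3 had 0 UMIs in every Aire-/- library, against 203, 240 and 266 UMIs in Aire+/+ libraries 745, 750 and 753. With 3 UMIs over the Aire-/- group as the floor, this was at least 117-fold lower (edgeR adjusted p = 5.21e-07), and Aire+/+ cells averaged 78.4 ± 11.4 CPM (SD, n = 3). Among the 22 glutathione transferases it took 0% of the UMIs in Aire-/- cells and 7.37 ± 1.08% in Aire+/+ cells (SD, n = 3). Gstm7, also of the mu class, had 1, 0 and 1 UMIs in Aire-/- libraries 746, 748 and 749, against 30, 45 and 34 in Aire+/+ libraries 745, 750 and 753. Its pooled level was 26.9 times as high in Aire+/+ as in Aire-/- (95% Clopper-Pearson interval 7.27 to 225, counting error only), and the fitted log2 fold change was -4.58 ± 0.61 (SE, edgeR adjusted p = 1.59e-04). Both genes were thus at or near 0 in Aire-/- libraries. They passed the filter on low counts only through the Aire+/+ libraries, so their direction was partly fixed in advance.

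The last 300 nt of transcripts, where a 3′ tag falls, are alike in parts of the cluster: 149 nt of the Gstm3 end are 90.6% identical to Gstm1, and 173 nt of the Gstm7 end are 91.3% identical to Gstm6. How reads that match several genes were counted is not given in the sources used here, so the division of counts between these pairs is uncertain. With the counts of Gstm1 and Gstm3 added together, the pair fell by 1.84 on the log2 scale (SE 0.17, edgeR adjusted p = 7.30e-06). With those of Gstm6 and Gstm7 added together, the difference was -0.69 (SE 0.23, edgeR adjusted p = 0.0524) and was not called.

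Gstm1, the mu class enzyme with the highest level of all 34 genes in Aire+/+ cells, had 111, 136 and 136 UMIs in Aire-/- cells, against 692, 713 and 743 in Aire+/+ cells. It averaged 90.1 ± 21.3 CPM in Aire-/- and 237 ± 11.3 CPM in Aire+/+ (SD, n = 3 each), and its log2 fold change was -1.42 (SE 0.16, edgeR adjusted p = 4.51e-05). It remained detected in every Aire-/- library, unlike Gstm3, although the division of counts between them is uncertain. Gstm2 had 18, 24 and 28 UMIs in Aire-/- cells and 96, 85 and 103 in Aire+/+ cells, a fall to 16.2 ± 2.90 CPM in Aire-/- against 31.4 ± 3.25 CPM in Aire+/+ (log2 fold change -0.98, SE 0.22, edgeR adjusted p = 0.00524). Gstm5, at the outer end of the cluster, had 5, 27 and 17 UMIs in Aire-/- cells and 68, 60 and 89 in Aire+/+ cells, or 10.02 ± 4.71 CPM in Aire-/- and 24.0 ± 5.24 CPM in Aire+/+ (log2 fold change -1.16, SE 0.31, edgeR adjusted p = 0.0166). This call rested on 1 library: without Aire+/+ library 753 the log2 fold change was -0.99 with an adjusted p of 0.0857, and without 746 and 753 it was -0.75 with an adjusted p of 0.137.

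Between and beyond these genes, Gstm6 and Gstm4 were not called. Gstm6 had 18, 24 and 34 UMIs in Aire-/- cells and 45, 48 and 55 in Aire+/+ cells, with overlapping levels of 17.4 ± 4.05 CPM in Aire-/- and 16.4 ± 1.90 CPM in Aire+/+ (SD, n = 3 each) and a log2 fold change of 0.07 (SE 0.25). Gstm4 averaged 16.2 ± 6.17 CPM in Aire-/- and 17.9 ± 1.58 CPM in Aire+/+ (log2 fold change -0.20, SE 0.29). Gstm6 thus kept overlapping levels in both groups, while Gstm7 and Gstm3, on either side of it, were at or near 0 in Aire-/- cells. The genes around the cluster were taken by position. On the side of Gstm5, Csf1, a macrophage growth factor, was not called (log2 fold change 0.27, SE 0.15), and Eps8l3, a relative of an actin regulator, fell with 1, 4 and 2 UMIs in Aire-/- cells against 24, 17 and 25 in Aire+/+ cells (log2 fold change -2.19, SE 0.47, edgeR adjusted p = 0.00455). On the side of Gstm4, Ampd2, an AMP deaminase, was not called (0.00, SE 0.24), and Gnat2, a transducin subunit of cone photoreceptors, was below the filter with 0, 4 and 1 UMIs in Aire-/- cells and 7, 14 and 8 in Aire+/+ cells.

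**Figure D2:**
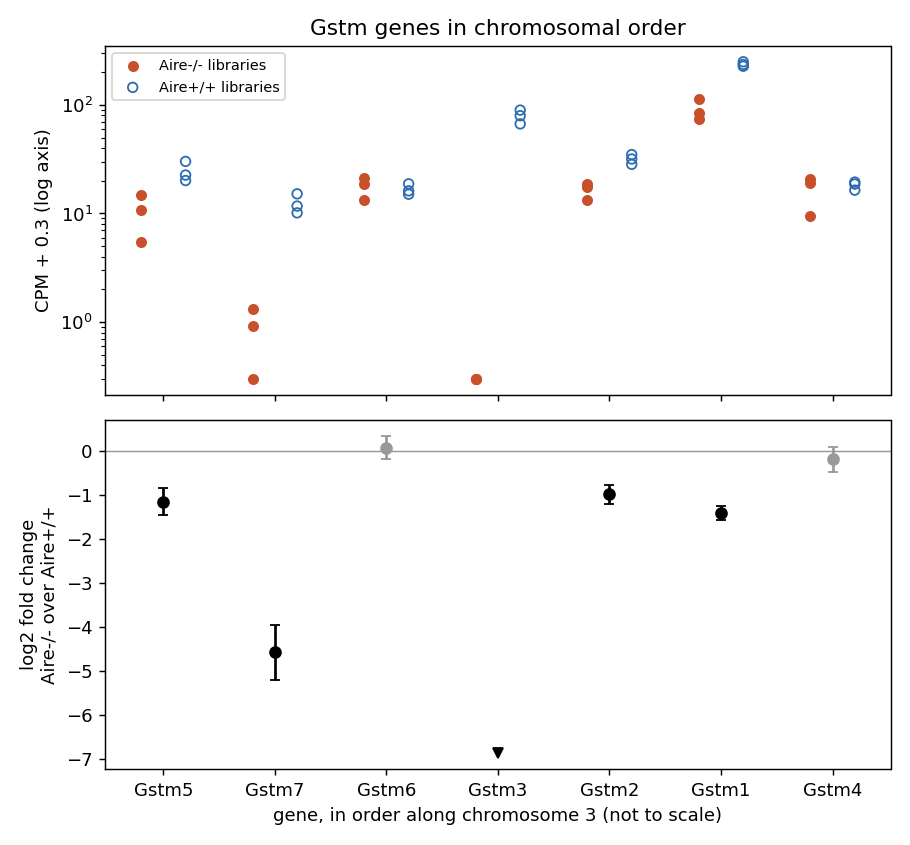
The 7 Gstm genes in their order along chromosome 3; the upper panel gives CPM with 0.3 added in each Aire-/- library (filled) and each Aire+/+ library (open) on a log axis, and the lower panel the log2 fold change of Aire-/- over Aire+/+ with its SE, black where called and grey where not. The triangle marks Gstm3, drawn at its bound of at least 117-fold lower; Gstm6, between Gstm7 and Gstm3, lies at 0.07.

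All 3 tested alpha class genes fell. Gsta4, which clears 4-hydroxynonenal, a product of lipid peroxidation (chr9:78182774-78209349), had 24, 46 and 22 UMIs in Aire-/- cells, against 275, 187 and 201 in Aire+/+ cells. It averaged 20.9 ± 6.49 CPM in Aire-/- and 73.2 ± 15.0 CPM in Aire+/+ (SD, n = 3 each; log2 fold change -1.82, SE 0.24, edgeR adjusted p = 1.26e-04). Gsta2 (chr9:78331018-78355788) had 10, 19 and 21 UMIs in Aire-/- cells and 114, 96 and 110 in Aire+/+ cells, or 11.1 ± 1.50 CPM in Aire-/- against 35.3 ± 3.15 CPM in Aire+/+ (log2 fold change -1.66, SE 0.22, edgeR adjusted p = 1.30e-04). The groups of both genes lay well apart. Gsta1, which lies between Gsta4 and Gsta2 on chromosome 9 (chr9:78230656-78242684), was below the filter with 17 UMIs over the Aire-/- libraries and 42 over the Aire+/+ libraries, and 298 nt of its 3′ end match Gsta2 at 94.6% identity. Summing the 2 genes gave a log2 fold change of -1.42 (SE 0.20, edgeR adjusted p = 2.71e-04), and adding the predicted copies Gm3776 and Gm10639, a choice made after seeing the data, gave -1.40 (SE 0.19, adjusted p = 1.73e-04). Among genes beside the cluster, Fbxo9 and Elovl5 were not called, Ooep, an oocyte gene, had 12, 7 and 7 UMIs in Aire-/- cells and 43, 38 and 54 in Aire+/+ cells (log2 fold change -1.30, edgeR adjusted p = 0.0355, DESeq2 adjusted p = 0.0587), and Dppa5a was below the filter with 0 UMIs over the Aire-/- libraries and 24 over the Aire+/+ libraries.

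Gsta3, which in the mouse conjugates the epoxide of aflatoxin, lies apart from the other alpha class genes on chromosome 1 (chr1:21240589-21265661). It had 7, 4 and 2 UMIs in Aire-/- cells and 27, 24 and 37 in Aire+/+ cells, with a log2 fold change of -1.69 (SE 0.50, edgeR adjusted p = 0.0290). The groups did not overlap, at 3.52 ± 3.21 CPM in Aire-/- and 9.74 ± 2.37 CPM in Aire+/+ (SD, n = 3 each), but the call depended on the libraries and the tool. Without Aire-/- library 746 the log2 fold change was -2.47 (edgeR adjusted p = 0.00354). It was not called without Aire-/- library 748 (-1.43, adjusted p = 0.125) or 749 (-1.27, adjusted p = 0.0846), without Aire+/+ library 745 (-1.75, adjusted p = 0.0637) or 753 (-1.47, adjusted p = 0.115), or with DESeq2 (-1.63, adjusted p = 0.0556).

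The theta class lies on chromosome 10 (chr10:75774115-75837424) in the order Gstt3, Gstt1, Gstt4 and Gstt2, and all 3 tested members fell. Gstt2 had 92, 155 and 165 UMIs in Aire-/- cells, against 564, 453 and 603 in Aire+/+ cells, or 92.9 ± 8.85 CPM in Aire-/- and 179 ± 26.9 CPM in Aire+/+ (SD, n = 3 each; log2 fold change -0.95, SE 0.15, edgeR adjusted p = 6.36e-04). The end of its annotated transcript matches that of 101 other genes over at least 80 nt at 90% identity or more, so its counts may hold reads of other genes. Gstt1, known for conjugating halogenated alkanes, had 34, 20 and 31 UMIs in Aire-/- cells and 179, 175 and 177 in Aire+/+ cells, or 21.5 ± 12.3 CPM in Aire-/- against 58.7 ± 0.80 CPM in Aire+/+ (log2 fold change -1.56, SE 0.28, edgeR adjusted p = 0.00137). Its Aire+/+ libraries were nearly equal, while its Aire-/- levels ranged from 10.8 CPM in library 748 to 34.9 CPM in library 746. Gstt3 had 35, 67 and 52 UMIs in Aire-/- cells and 179, 171 and 150 in Aire+/+ cells, or 34.6 ± 2.42 CPM in Aire-/- and 55.2 ± 4.33 CPM in Aire+/+, the smallest fold among the 13 (log2 fold change -0.68, SE 0.16, edgeR adjusted p = 0.00863), and its end overlaps the gene model Gm20441 on the same strand. Gstt4, below the filter, had 0, 0 and 1 UMIs in Aire-/- cells and 9, 13 and 9 in Aire+/+ cells, a pooled ratio of Aire+/+ to Aire-/- of 15.3 (95% interval 2.55 to 624). The genes flanking the cluster, Cabin1 and Ddt on one side and Mif and Derl3 on the other, were not called.

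Gsto1, an omega class enzyme that reduces dehydroascorbate (chr19:47854970-47864790), had 33, 44 and 50 UMIs in Aire-/- cells and 274, 211 and 178 in Aire+/+ cells. Its level was 29.4 ± 5.21 CPM in Aire-/- and 73.1 ± 15.3 CPM in Aire+/+ (SD, n = 3 each; log2 fold change -1.34, SE 0.20, edgeR adjusted p = 4.05e-04). Gsto2, its neighbour on chromosome 19, had 7 UMIs over the Aire-/- libraries and 13 over the Aire+/+ libraries and was not tested.

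The remaining classes of glutathione transferase were not called. Gstp3, of the pi class, averaged 59.7 ± 12.4 CPM in Aire-/- and 60.0 ± 1.55 CPM in Aire+/+ (SD, n = 3 each), with a log2 fold change of 0.01 (SE 0.16). Gstp1, the pi class enzyme known from many tumours, averaged 44.7 ± 27.9 CPM in Aire-/- and 48.5 ± 10.2 CPM in Aire+/+ (log2 fold change -0.05, SE 0.33). Its Aire-/- library 746 stood low at 15.4 CPM, against 47.9 and 70.9 CPM in Aire-/- libraries 748 and 749, and the log2 fold change was 0.29 without library 746 (SE 0.21, edgeR adjusted p = 0.395) and -0.48 without library 749 (SE 0.30, edgeR adjusted p = 0.283). The last 300 nt of Gstp1 and Gstp2 are identical, and Gstp2 had 6 UMIs in each group. Around the 3 pi class genes on chromosome 19 (chr19:4035407-4059569), Ndufv1, Doc2g and Cdk2ap2 were not called, and Cabp2, a calcium-binding protein, fell with 0, 0 and 1 UMIs in Aire-/- cells against 62, 54 and 49 in Aire+/+ cells (log2 fold change -6.03, SE 0.60, edgeR adjusted p = 1.57e-05). Gstz1, which isomerises maleylacetoacetate in the breakdown of tyrosine, averaged 29.3 ± 2.26 CPM in Aire-/- and 30.5 ± 0.94 CPM in Aire+/+ (log2 fold change -0.07, SE 0.18), and Gstk1, of mitochondria and peroxisomes, 11.4 ± 1.32 CPM in Aire-/- and 14.7 ± 3.83 CPM in Aire+/+ (-0.36, SE 0.29). A p-value that misses the threshold does not show that these levels were alike.

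Summed over the 22 glutathione transferases, the level was 531, 462 and 556 CPM in Aire-/- libraries 746, 748 and 749, against 1088, 998 and 1110 CPM in Aire+/+ libraries 745, 750 and 753. The groups did not overlap. The theta class sum was 149 ± 17.8 CPM in Aire-/- and 296 ± 24.8 CPM in Aire+/+, the alpha class sum 39.3 ± 6.84 CPM in Aire-/- and 123 ± 18.7 CPM in Aire+/+, and the pi class sum 106 ± 40.7 CPM in Aire-/- and 109 ± 12.4 CPM in Aire+/+ (SD, n = 3 each). Within the class, Gstm1 took 17.4 ± 3.53% of its UMIs in Aire-/- and 22.3 ± 1.37% in Aire+/+, while Gstp3 took 11.6 ± 2.04% in Aire-/- and 5.64 ± 0.26% in Aire+/+, and Gstz1 5.70 ± 0.46% in Aire-/- and 2.87 ± 0.24% in Aire+/+. Gstt2 took 18.0 ± 0.18% in Aire-/- and 16.7 ± 1.64% in Aire+/+. These shares are descriptions and carry no test.

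**Figure D3:**
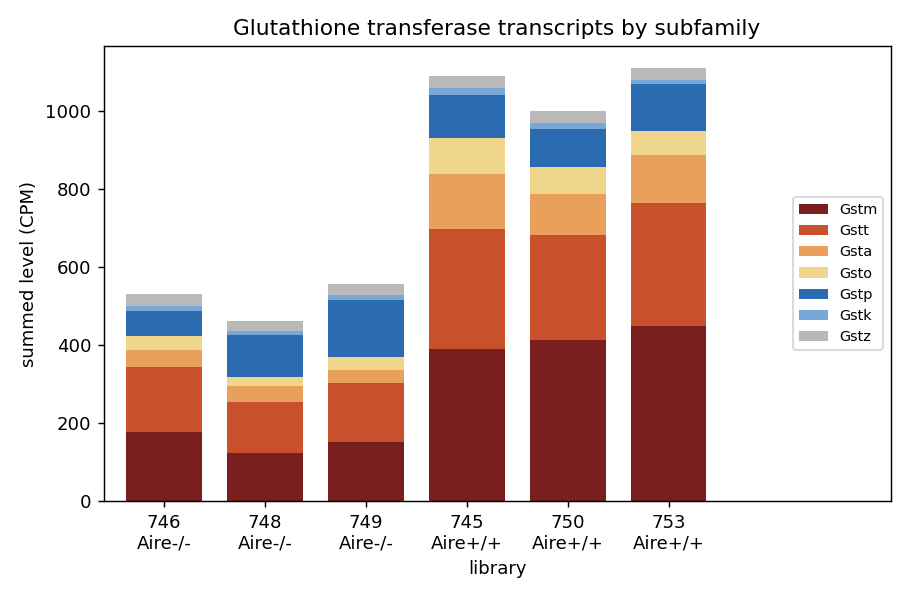
Summed CPM of the 22 glutathione transferases in each library, stacked by subfamily, with the 3 Aire-/- libraries left of the 3 Aire+/+ libraries. The Aire-/- bars reach 462 to 556 CPM and the Aire+/+ bars 998 to 1110 CPM, and the pi class (Gstp) part averages 106 CPM in Aire-/- and 109 CPM in Aire+/+.

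Most sulfotransferases were not called. As a class they summed to 138 ± 4.07 CPM in Aire-/- and 166 ± 11.3 CPM in Aire+/+ libraries (SD, n = 3 each), and 1 of the 5 tested fell. Sult1a1, which sulfates phenols (chr7:126672865-126676432), had 8, 6 and 15 UMIs in Aire-/- cells and 60, 46 and 62 in Aire+/+ cells, or 6.87 ± 3.19 CPM in Aire-/- and 18.6 ± 2.97 CPM in Aire+/+ (log2 fold change -1.49, SE 0.35, edgeR adjusted p = 0.00861). Its 3′ end overlaps Sgf29 on the opposite strand, and the strand setting of the count is not given in the sources used here. Sult2b1, which sulfates cholesterol in the epidermis, had 47, 58 and 82 UMIs in Aire-/- cells and 175, 184 and 186 in Aire+/+ cells. Its groups did not overlap, at 43.2 ± 10.4 CPM in Aire-/- and 60.2 ± 2.57 CPM in Aire+/+, but it was not called (log2 fold change -0.50, SE 0.19, edgeR adjusted p = 0.0784). It passed with scaling by library totals (log2 fold change -0.70, adjusted p = 0.0149) and without Aire-/- library 749 (-0.66, adjusted p = 0.0261), and not in the other settings, among them DESeq2 (-0.49, adjusted p = 0.175) and the fit without Aire-/- library 748 (-0.28, adjusted p = 0.334).

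Sult1c2 had the most positive fold change of the 24 tested genes. It had 48, 98 and 89 UMIs in Aire-/- cells and 118, 126 and 144 in Aire+/+ cells, or 52.1 ± 2.61 CPM in Aire-/- and 42.9 ± 4.94 CPM in Aire+/+ (SD, n = 3 each), and did not pass the test (log2 fold change 0.29, SE 0.16, edgeR adjusted p = 0.241), although the CPM of the 2 groups did not overlap. Sult5a1 averaged 30.8 ± 10.8 CPM in Aire-/- and 27.4 ± 5.88 CPM in Aire+/+ (0.20, SE 0.26), with an annotated end that matches that of 25 other genes. Sult4a1, of neurons, averaged 4.38 ± 0.89 CPM in Aire-/- and 3.96 ± 1.98 CPM in Aire+/+ (0.16, SE 0.48).

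The 4 sulfotransferases below the filter had few UMIs, mostly in Aire+/+ cells. Every gene in the table reached at least 6 UMIs in some library, and these genes did so only in the deeper Aire+/+ libraries. Their direction was thus partly fixed in advance and is not read as a result. Sult1c1, a neighbour of Sult1c2 on chromosome 17, had 0 UMIs in every Aire-/- library and 19, 5 and 16 in Aire+/+ cells, which is at least 6.58-fold lower against 3 UMIs over the group. Sult1e1, which sulfates oestrogens, had 2 UMIs over the Aire-/- libraries and 41 over the Aire+/+ libraries (pooled ratio of Aire+/+ to Aire-/- 10.1, 95% interval 2.63 to 86.3). These 2 genes had adjusted p-values of 0.00418 and 0.0475 in the authors' deposited table, which tests all genes. Sult1d1, which sulfates catecholamines, had 3 UMIs over the Aire-/- libraries and 16 over the Aire+/+ libraries, with an interval that includes 1 (pooled ratio 2.63, 0.753 to 14.1), and Sult6b1 had 0 over the Aire-/- libraries and 17 over the Aire+/+ libraries, at least 2.80-fold lower. Beside Sult1d1 and Sult1e1 on chromosome 5, the casein gene Csn1s1 fell with 1, 0 and 0 UMIs in Aire-/- cells against 45, 28 and 37 in Aire+/+ cells (log2 fold change -5.44, edgeR adjusted p = 1.45e-04), the casein gene Csn2 rose to 958 ± 144 CPM in Aire-/- against 457 ± 50.4 CPM in Aire+/+ (1.07, edgeR adjusted p = 2.36e-04), and Ythdc1 was not called.

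Of the UDP-glycosyltransferases only Ugt1a6b was tested. It had 90, 53 and 65 UMIs in Aire-/- cells and 144, 139 and 149 in Aire+/+ cells, or 53.5 ± 34.1 CPM in Aire-/- and 47.7 ± 2.09 CPM in Aire+/+ (SD, n = 3 each), and was not called (log2 fold change 0.08, SE 0.31, edgeR adjusted p = 0.896). The Aire-/- libraries lay far apart: library 746 was at 92.4 CPM, above every Aire+/+ library, while Aire-/- libraries 748 and 749, at 28.5 and 39.7 CPM, lay below them. The log2 fold change was -0.49 without library 746 (SE 0.19, edgeR adjusted p = 0.0913) and 0.42 without library 748 (SE 0.28, edgeR adjusted p = 0.366). Genes of the Ugt1a locus share their last exons, and the last 300 nt of Ugt1a6b are identical to those of 8 other Ugt1a genes, so its 3′ tags cannot be assigned to one enzyme. Ugt8a had 0, 0 and 2 UMIs in Aire-/- cells and 13, 11 and 15 in Aire+/+ cells (pooled ratio of Aire+/+ to Aire-/- 9.62, 95% interval 2.49 to 82.3). Ugt2b34 had 1 UMI over the Aire-/- libraries and 18 over the Aire+/+ libraries (pooled ratio 8.88, 1.40 to 370).

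With the filter lowered to a minimum count of 3, Gstt4, Sult1c1, Sult1e1 and Ugt8a were also called lower, with edgeR adjusted p-values of 0.00953, 0.00587, 0.0121 and 0.0120, which made 17 of the 34 genes. Of the 34, Gstp2 and Sult6b1 still lay below the filter and were not tested. Over all genes, 2113 were called lower in this setting, against 1450 in the main fit. The number of all genes tested in this setting is not given here, so these counts are not read as shares. The added genes reached 6 UMIs, the minimum that every gene in the table reaches in some library, only in Aire+/+ libraries. Their direction was thus partly fixed in advance. DESeq2 also called Sult1c1 and Sult1e1, but not Gstt4 (adjusted p = 0.0539) or Ugt8a (adjusted p = 0.0546), and edgeR did not call Sult1e1 (adjusted p = 0.0731) or Ugt8a (adjusted p = 0.0712) without Aire-/- library 748. The authors' deposited table marks Gsta2, Gsta4, Gstm1, Gstm3, Gstm5, Gstm7, Gsto1, Gstt1, Sult1a1 and Sult1e1 as selected. The rule of that selection and the share of all genes selected are not given here, so their number is not read as a result.

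The supply and use of glutathione changed in single genes. Of 12 tested genes of its synthesis and recycling 3 fell and 1 rose, with a median log2 fold change of -0.33. Ggt1, the surface enzyme that splits glutathione outside the cell, had 3, 5 and 10 UMIs in Aire-/- cells and 110, 91 and 106 in Aire+/+ cells (log2 fold change -3.06, SE 0.30, edgeR adjusted p = 1.45e-05). Gss, glutathione synthetase, averaged 16.3 ± 1.54 CPM in Aire-/- and 34.4 ± 4.67 CPM in Aire+/+ (SD, n = 3 each; log2 fold change -1.07, SE 0.21), and Chac2, which breaks glutathione down in the cytosol, 27.0 ± 4.18 CPM in Aire-/- and 14.2 ± 1.95 CPM in Aire+/+ (0.91, SE 0.22). The third gene that edgeR called lower was Slc7a11, a cystine importer (adjusted p = 0.0398), which DESeq2 did not call. Of 7 tested glutathione peroxidases, which use glutathione to reduce peroxides, 3 fell (median -0.70). Gpx3, the secreted peroxidase of plasma, averaged 52.4 ± 9.41 CPM in Aire-/- and 410 ± 43.1 CPM in Aire+/+ (log2 fold change -2.99, SE 0.16, edgeR adjusted p = 1.66e-07). Gpx2, known from the gut lining, had 11, 16 and 6 UMIs in Aire-/- cells and 188, 165 and 172 in Aire+/+ cells (-2.95, SE 0.27), and Gpx6, known from the olfactory lining, 0, 1 and 0 UMIs in Aire-/- cells and 44, 46 and 42 in Aire+/+ cells (-5.72, SE 0.61).

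Other lists of related enzymes had medians of -0.25 to 0.30. Of 6 tested membrane-bound transferases of the MAPEG family 0 were called by edgeR (0 lower and 2 higher at an unadjusted p under 0.05) and 0 by DESeq2, with a median of 0.22. Of 10 tested relatives with a glutathione transferase fold Clic3 fell and Clic4 rose (median -0.03). Of 4 tested genes of UDP-glucuronate supply 0 were called by edgeR (2 lower and 0 higher at an unadjusted p under 0.05) and 0 by DESeq2 (median -0.25). Of 7 tested genes of sulfate activation and supply edgeR called 1 lower, the sulfate carrier Slc26a1 (adjusted p = 0.0465), and DESeq2 called 0 in either direction (0.184 for Slc26a1; median 0.04). Of 11 tested sulfatases Arsb and Sulf1 rose (median 0.26), and of 15 tested sulfotransferases of the Golgi Tpst2, which sulfates tyrosines, rose (median 0.30). Of 5 other conjugating enzymes 1 fell, the N-methyltransferase Inmt, with 0, 0 and 2 UMIs in Aire-/- cells and 21, 31 and 52 in Aire+/+ cells. Of 11 genes of epoxide and quinone defence Aldh3a1 and Akr1b8 fell and Cbr2 and Nqo1 rose (median -0.10). Nqo1, a quinone reductase often used to read Nrf2 activity, averaged 30.0 ± 2.66 CPM in Aire-/- and 18.0 ± 0.44 CPM in Aire+/+ (SD, n = 3 each; log2 fold change 0.74, SE 0.19, edgeR adjusted p = 0.0146; DESeq2 adjusted p = 0.0604).

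**Figure D4:**
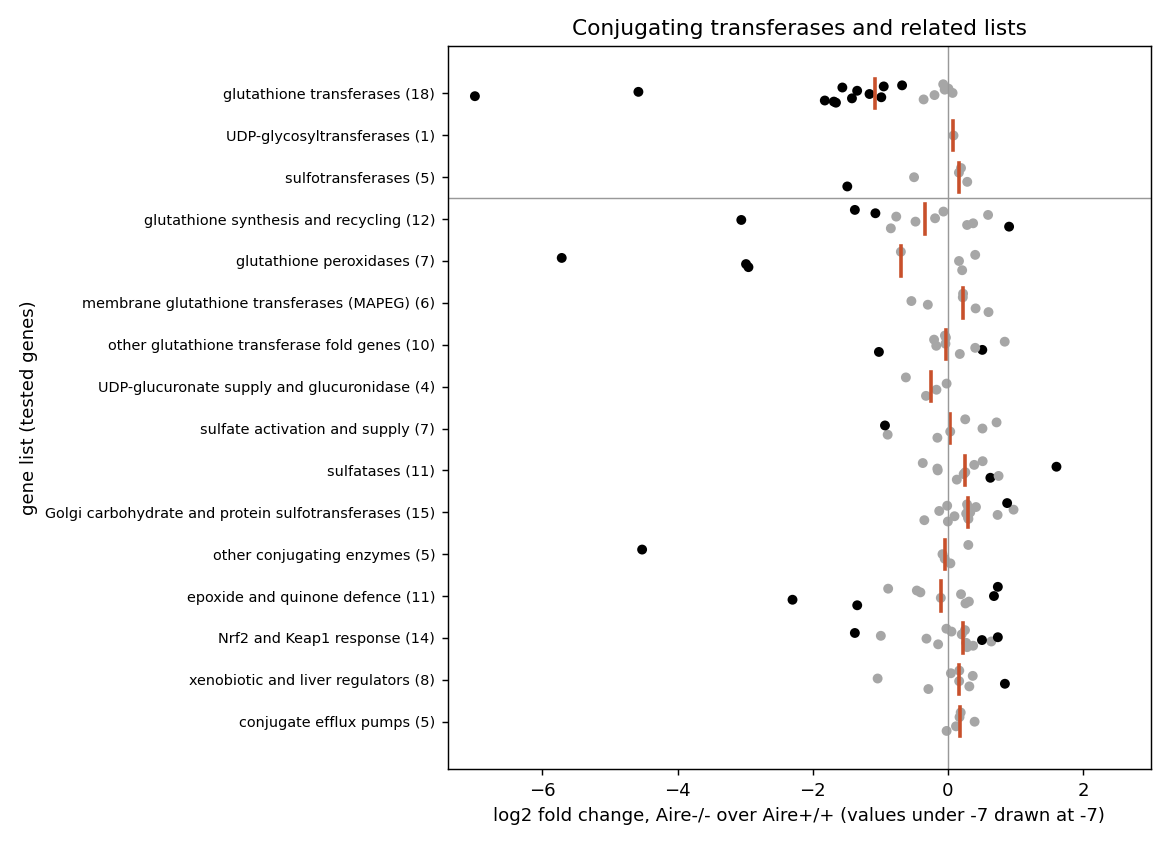
Log2 fold change of Aire-/- over Aire+/+ for each tested gene of the 3 enzyme classes (above the line) and of related gene lists (below it), with the number of tested genes in brackets; black points were called, grey points were not, and the orange bar is the median of each list. Gstm3, with 0 UMIs in Aire-/- libraries, is drawn at -7, and the glutathione transferases have the lowest median of the lists drawn, -1.07. Lists of cell markers are not drawn. Of these, the secretory airway-like (-2.86), enterocyte or hepatocyte-like (-1.85) and ciliated (-1.22) lists had lower medians, and the others higher ones.

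Regulators known to drive these enzymes were mostly not called. Of 14 tested genes of the Nrf2 and Keap1 response edgeR called Slc7a11 lower and Nqo1 and Mafg higher (median 0.23), and DESeq2 called 0 lower and 0 higher, with adjusted p-values of 0.0734 for Slc7a11, 0.0604 for Nqo1 and 0.0657 for Mafg. Of 8 tested xenobiotic and liver regulators Cdx1, an intestinal transcription factor, rose to 692 ± 40.7 CPM in Aire-/- against 385 ± 38.7 CPM in Aire+/+ (SD, n = 3 each; log2 fold change 0.84, SE 0.13, edgeR adjusted p = 4.74e-04), with a median of 0.17. None of the 8 was called lower by edgeR, and 1 was lower at an unadjusted p under 0.05. A further 3 regulators lay below the filter and were named after their values were seen. Hnf4a, a regulator of liver and gut genes, had 0 UMIs in every Aire-/- library and 14, 16 and 6 in Aire+/+ cells, and Cdx2, an intestinal regulator, 0 in every Aire-/- library and 11, 12 and 14 in Aire+/+ cells. The bile acid receptor gene Nr1h4 had 1, 0 and 0 UMIs in Aire-/- cells and 13, 11 and 9 in Aire+/+ cells. DESeq2, which also tests genes of low count, called these 3 of 16 regulators lower and Cdx1 higher. These 3 reached 6 UMIs, the minimum that every gene in the table reaches in some library, only in Aire+/+ libraries. Their direction was thus partly fixed in advance and is not read as a result. Of 5 tested conjugate efflux pumps 0 were called by edgeR and 0 were at an unadjusted p under 0.05 (median 0.17), while DESeq2 called 1 of 10 lower and 0 higher.

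Markers of other cell kinds also differed between the groups. Of 8 tested markers of enterocyte or hepatocyte-like cells 6 fell, among them Alb and Apob, which had 0 UMIs in every Aire-/- library, and the summed level of the list ran from 139 to 239 CPM in Aire-/- libraries and from 374 to 446 CPM in Aire+/+ libraries. Of 8 tested keratinocyte-like markers 5 fell by edgeR and 4 by DESeq2 (363 to 634 CPM in Aire-/- and 1102 to 1138 CPM in Aire+/+ libraries). Of 4 tested secretory airway-like markers 3 fell by edgeR, and DESeq2 called 2 of 6 lower (20.8 to 276 CPM in Aire-/- and 297 to 408 CPM in Aire+/+), and of 2 tested markers of ciliated cells 1 fell (31.2 to 50.1 CPM in Aire-/- and 97.7 to 137 CPM in Aire+/+). Of 6 tested microfold-like markers 2 fell (484 to 548 CPM in Aire-/- and 576 to 629 CPM in Aire+/+). Other lists held genes that rose. Of 13 mature medullary markers H2-Ab1, H2-Aa, Cd80 and Cd86 rose and Ly6a fell (43758 to 49963 CPM in Aire-/- and 26872 to 31520 CPM in Aire+/+). Of 4 tested neuroendocrine-like markers Chga and Insm1 rose and Scg2 fell (578 to 638 CPM in Aire-/- and 317 to 388 CPM in Aire+/+), and of 5 tested tuft-like markers Trpm5, a taste channel, rose (77.0 to 152 CPM in Aire-/- and 60.8 to 90.5 CPM in Aire+/+). DESeq2 called 2 of 6 neuroendocrine-like markers lower and 2 higher. Below the filter, neuroendocrine-like Chgb and Ret had 2 and 10 UMIs over the Aire-/- libraries, and 45 and 25 over the Aire+/+ libraries. Tuft-like Dclk1 and Pou2f3 had 6 and 14 UMIs over the Aire-/- libraries, and 51 and 16 over the Aire+/+ libraries. Chgb and Dclk1 reached 6 UMIs in a library only in Aire+/+ cells. Pax5 was the 1 of 4 tested B cell markers that rose, and Cd68 the 1 of 7 tested macrophage and dendritic cell markers. Of 8 cortical epithelial markers 6 rose (2563 to 2755 CPM in Aire-/- and 1252 to 1553 CPM in Aire+/+), and of 4 tested fibroblast markers 2 rose (155 to 621 CPM in Aire-/- and 67.4 to 105 CPM in Aire+/+), with the highest sum in library 746. None of 3 tested endothelial markers, 1 tested erythroid marker and 9 tested thymocyte markers was called by edgeR, at an unadjusted p under 0.05, or by DESeq2, and the thymocyte list summed to 154 to 290 CPM in Aire-/- and 159 to 270 CPM in Aire+/+. The part of these cell kinds in the levels of the transferases was not tested.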

How the data were processed

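One table covers all 6 libraries. Its columns of UMI counts per gene hold unscaled counts, as the file headers and values show, deposited by the authors. Its normalized counts are a signal that the authors made with 1 size factor per library, and its regularized log2 values, also by the authors, were not used. The fold changes, p-values and adjusted p-values in the authors' deposited table are of Aire+/+ over Aire-/-, per the file headers. Per the submitters' processing notes, the build was mm10 and the tools included STAR 2.4.2a, HTSeq and DESeq2, with no roles named. Not given in the sources used here are the annotation and the handling of UMIs, strand and multiply matching reads.

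Genotypes were compared on the raw counts with edgeR 4.0.16 in R 4.3.3 (glmQLFit and glmQLFTest, TMM scaling, filterByExpr with a minimum count of 10, Benjamini-Hochberg adjustment over 11956 genes, threshold 0.05), which was checked on simulated data. All libraries of both genotypes entered 1 fit with genotype as the only term. Library numbers are not shared by the genotypes, so nothing was paired. Each SE was computed from the log2 fold change and the F value. Replicate libraries differed by more than counting noise (chi-square per degree of freedom 3.02 to 6.83). The limit behind a count of 0 was set at 3 UMIs: 1.53 to 2.96 CPM of a library's total in Aire-/- libraries, 1.04 to 1.10 CPM in Aire+/+ libraries. Intervals are exact Clopper-Pearson at 95% and, like floors, cover counting error only.

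The members, the gene lists and the motifs were chosen with earlier results of these data known. Every member was described: libraries one by one where called, means where only tested, pooled UMIs below the filter from 20 UMIs upward, and of each related list up to 3 called genes by smallest p. Members under 20 UMIs were also named, after their values were seen. Ends of transcripts (300 nt) were compared with blastn 2.17.0, counting matches of at least 80 nt at 90% identity. Alternatives were scaling by library totals, DESeq2 size factors and DESeq2 1.42.0, a minimum count of 3 and no filter, leaving out each library and both libraries of low Gapdh, and summed copies.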

Additional observations from a re-analysis of the deposited data

How the results depend on the processing

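Over 14 other settings (13 planned and 1, summed alpha class copies, chosen after seeing the data), the 13 genes called lower gave 170 values, of which 162 stayed called, 8 did not (5 of Gsta3, 2 of Gstm5 and 1 of Gstm7) and 0 changed direction, and 10 of the 13 genes stayed called throughout. Where copies were summed, a gene was given the value of its sum. Gstm1 and Gstm3 thus share the same value there, counted for each, and that setting does not judge Gstm3 or Gsta2 alone. The number of the 34 genes called lower ran from 11 to 17, and 0 were called higher in every planned setting. Over all genes, the number called lower ran from 1098 without Aire+/+ library 753 to 2142 with no filter. The count of all genes called higher, 1027, became 567 with scaling by library totals, 652 without libraries 746 and 753, and 618 to 1156 with 1 library left out. Scaling by library totals moved the share of all calls that were lower to 78.3%, against 58.5% with TMM, and the median of all genes to -0.22, against -0.02. The median of the tested members, -0.81, became -1.01 with library totals, where it is read against -0.22, -1.06 with a minimum count of 3, -1.05 with no filter, -1.08 with DESeq2, -0.76 without 746 and 753, -0.69 with near-identical copies summed, and -1.06 to -0.78 with 1 library left out. The cause of these moves was not tested. More members entered the median with a lower filter and with DESeq2. No paired analysis was possible because the library numbers differ between genotypes. Depth limits the 10 members below the filter, whose ratios have wide intervals. Of these only Gsta1 reached 6 UMIs, the minimum that every gene in the table reaches in some library, in an Aire-/- library. The direction of the others was thus partly fixed in advance.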
